A study of Mus musculus with 27 samples.

Results

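The early uterine response to 17β-estradiol (E2) was compared between a hybrid mouse and one of its parents. The measure was the change 2 h after E2 in the F1 minus the same change in C3H, so a positive difference means a response that ran further upward in F1. It rests on 12 arrays, 3 in each of 4 groups, of the 27 arrays of the whole series. The groups were F1 uterus 2 h after E2, F1 uterus after vehicle, C3H uterus 2 h after E2 and C3H uterus after vehicle. F1 animals were the first-generation cross of C57BL/6 and C3H/HeJ, and C3H animals were C3H/HeJ. All were ovariectomised females 8 weeks old that rested 1 to 2 weeks after surgery and then received a single intraperitoneal injection. E2 was given at 40.0 µg per kg in 0.1 ml saline with 0.25% ethanol, and vehicle was the same liquid without E2. The sampling time of the vehicle animals is not stated in the labels. Each treatment group had 3 animals, but the labels do not say which animal each array came from. The p-values therefore reflect the spread between these samples, and that spread may be technical. RNA came from whole uterus, where fewer cells of a type and less RNA per cell cannot be told apart.

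E2 acts in the uterus mainly through estrogen receptor alpha, a nuclear receptor in epithelium, stroma and muscle that binds estrogen response elements in DNA and also works through other factors such as AP-1. Removing the ovaries takes away the main source of the hormone, so a single dose meets a quiescent organ. Within the first hours immediate early transcription factors, growth factor genes and genes of vessel permeability change, and waves of DNA synthesis and mitosis in the epithelium follow later. B6 and C3H mice are known to differ in several estrogen responses of the reproductive tract, and a hybrid carries one set of chromosomes from each parent.

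Depth of signal differed somewhat between the strains. The share of probes well above background ran from 72.9% to 76.7% on the F1 arrays and from 76.2% to 79.9% on the C3H arrays. Every level below is scaled to its array's 75th percentile of processed signal. This percentile ran from 1401 to 1579 intensity units on the E2 arrays and from 1211 to 1326 on the vehicle arrays. Replicate arrays of a group correlated at r = 0.992 to 0.996 across genes. C3H E2 2 h replicate 1 stood apart: it had 295 genes that deviated by more than 1 log2 from the mean of their group, against 79 to 152 on the other 11 arrays. Markers of luminal and glandular epithelium (14 of 14 measured), stroma (12 of 12) and smooth muscle (10 of 10) were well above background on all 12 arrays. All 3 F1 E2 arrays and F1 vehicle replicate 3 shared a slide. C3H E2 and C3H vehicle arrays lay on different slides, so slide and the C3H response cannot be told apart. Among the 12 arrays no slide held both strains, so every difference in level between F1 and C3H is also a difference between slides.

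E2 changed a large share of the transcriptome within 2 h in both strains. E2 changed 13074 of 21861 genes tested in F1 (59.8%), with 5004 higher (22.9%) and 8070 lower (36.9%). In C3H it changed 13360 (61.1%), with 5216 higher (23.9%) and 8144 lower (37.3%; limma, Benjamini-Hochberg adjusted p under 0.05). With a fixed slide term the F1 count was 10774, and against the F1 vehicle array of the same slide alone it was 10433. The split between higher and lower genes depends on the scaling: with arrays centred on their median it was 6380 and 5960 in F1 and 6881 and 5761 in C3H, and without scaling 7169 and 4668 in F1 and 6662 and 5184 in C3H. The median response over all genes was -0.12 log2 in F1 and -0.13 log2 in C3H, against 0.04 and 0.04 with median centring and 0.13 and 0.06 without scaling. The median difference was -0.01 log2, against -0.03 with median centring and 0.06 without scaling. Across genes, which are not independent replicates, the responses of the strains correlated at r = 0.918 with no array in common. Of 4622 genes that passed the threshold with a change of at least 2-fold in F1 or in C3H, 97.9% changed in the same direction in both and 78.0% differed by less than 0.5 log2.

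The difference itself was called for 49 genes, 0.224% of those tested, with 20 positive (0.0915%) and 29 negative (0.133%). At an unadjusted p under 0.05 there were 2013 genes (9.21%), and the median standard error of a difference was 0.17 log2. Among the 49 the ranges of the responses over arrays did not overlap between strains in any gene. Over all genes tested this held for 5.84%. The same arrays gave the calls, so the lack of overlap describes the 49 genes and is no further support. The count of 49 fell to 32 and 31 without F1 E2 2 h replicate 2 or 3, to 29 without C3H E2 2 h replicate 3 and to 28 without C3H vehicle replicate 2. It was 45 without C3H E2 2 h replicate 1, the array that stands apart. With the single F1 vehicle array that shared the slide of the F1 E2 arrays it was 37 (10 positive and 27 negative), of which 16 were among the 49. Without scaling it was 20 (14 positive and 6 negative).

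**Figure D1:**
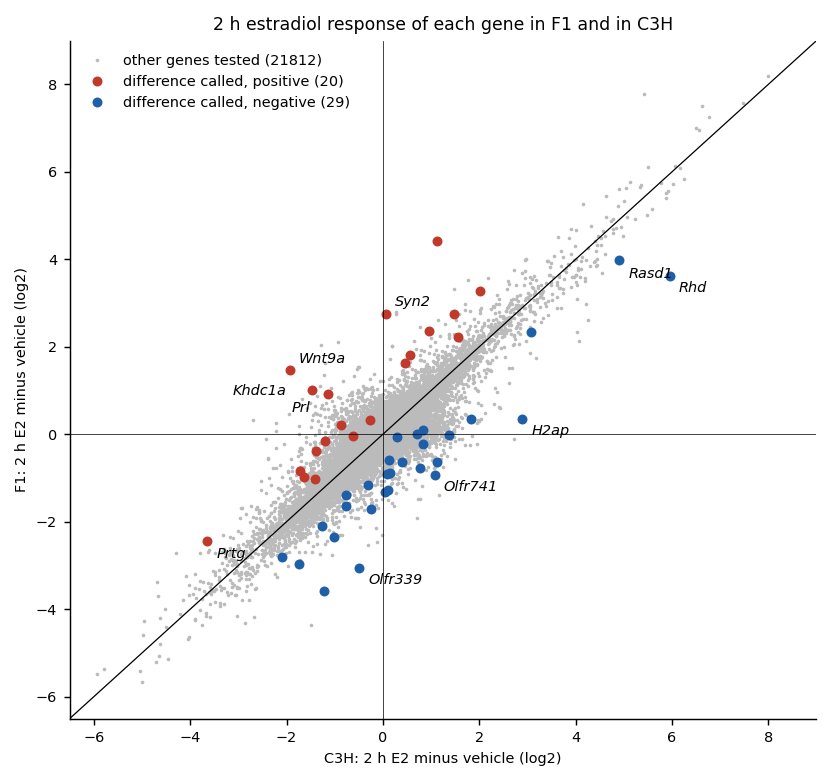
Each point is a gene, placed by its change 2 h after E2 relative to vehicle in F1 (y axis, log2) and in C3H (x axis, log2), with the line of equal response. The 20 red genes lie above the line and the 29 blue genes below it, and Wnt9a, Khdc1a, Prl and Olfr741 lie in the quadrants where the strains moved in opposite directions.

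The 49 genes sort into several kinds of response. In 8 the strains moved in opposite directions, each past the threshold. The rise was larger in F1 for 7 genes and smaller for 4, and the fall was larger in F1 for 9 and smaller for 5. A rise passed the threshold in C3H alone for 6 genes and in F1 alone for 1, and a fall passed it in F1 alone for 6 and in C3H alone for 3. The strains differed in the E2 level but not past the threshold in the vehicle level for 18 genes, the reverse held for 13, and both levels differed for 18. Over all genes tested, the E2 level differed for 4073 (18.6%; 1363 or 6.23% higher and 2710 or 12.4% lower in F1). The vehicle level differed for 3132 (14.3%; 1165 or 5.33% higher and 1967 or 9% lower in F1). With a fixed slide term the E2 level differed for 213 genes, with the balance turned to 184 higher and 29 lower in F1. Against the F1 vehicle array of the E2 slide alone the vehicle level differed for 1066, 561 higher and 505 lower. With quantile normalization the vehicle split was 1472 and 1589, and without scaling 695 and 2240.

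Wnt9a, a secreted WNT ligand, had the largest difference of the 49 called genes. Its level, in log2 units relative to the array's 75th percentile, was 1.96, 1.60 and 1.83 in F1 after E2, against 0.30, 0.26 and 0.41 in F1 vehicle uterus. C3H uterus had levels of -1.50, -1.77 and -1.81 after E2, against 0.23, 0.35 and 0.14 with vehicle. The vehicle arrays of the strains overlapped, while every F1 E2 array was above and every C3H E2 array below them. E2 thus raised Wnt9a by 1.47 log2 in F1 (SE 0.09, 2.77-fold) and lowered it by 1.93 log2 in C3H, a change of -1.93 (SE 0.09, 3.82-fold). The difference was 3.40 log2 (SE 0.12, adjusted p = 5.13e-13), and a further Wnt9a probe gave 2.17 (SE 0.23). In the other parent strain, B6, Wnt9a was 2.79, 2.86 and 2.82 after E2, against 0.38, 0.47 and 0.53 with vehicle, a rise of 2.36 log2. At 24 h the changes from vehicle were -0.64 log2 in F1 and -0.71 log2 in C3H, and their difference of 0.07 did not pass (adjusted p = 0.820). The 2 h and 24 h differences differed from each other by -3.33 log2 (24 h minus 2 h, adjusted p = 7.65e-13). This contrast was called for 3.38% of all genes tested. For Wnt9a it reuses the 2 h E2 arrays that singled the gene out, so it is no separate support. The 24 h difference of responses was called for 3.82%. On mm7 the Wnt9a probe lies on chromosome 11 at 59414739 to 59414798.

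**Figure D2:**
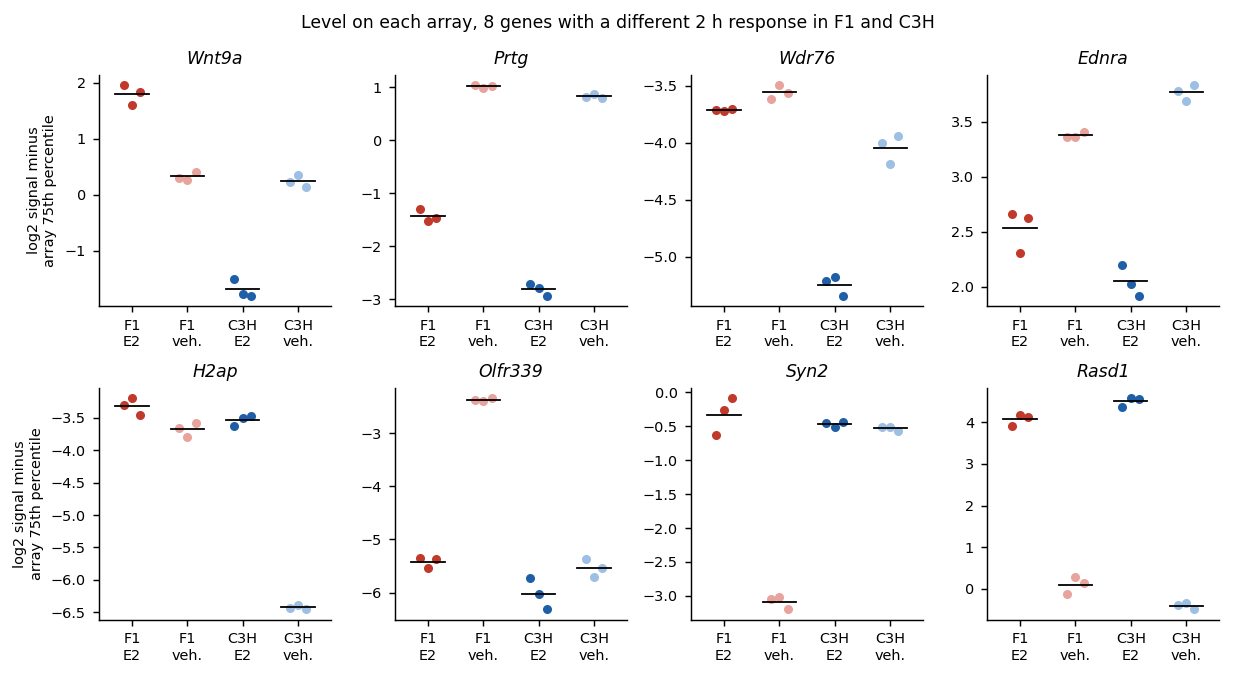
Levels on the 12 arrays for 8 genes, as log2 processed signal minus the array's 75th percentile (y axis, own scale per gene); points are arrays and lines are means of 3 arrays. In Wnt9a, Prtg and Wdr76 of the upper row the strains part mainly after E2, and in Ednra they part in both conditions, in opposite directions. In H2ap, Olfr339 and Syn2 of the lower row they part mainly with vehicle.

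Prtg and Wdr76 also parted after E2. Prtg, which encodes protogenin, a cell surface protein of the immunoglobulin superfamily known from embryonic development, was -1.29, -1.52 and -1.48 in F1 after E2, against 1.04, 0.99 and 1.03 with vehicle. For C3H the levels were -2.72, -2.79 and -2.94 after E2, against 0.82, 0.87 and 0.79 with vehicle. It fell in both strains, by 5.46-fold in F1 and 12.5-fold in C3H, and the E2 arrays of the strains did not overlap (difference 1.19 log2, SE 0.12, adjusted p = 2.1e-05). All 3 Prtg probes had a positive difference. In B6 the change was -1.43 log2.

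Wdr76, which encodes a WD repeat protein linked to chromatin and DNA damage, was -3.72, -3.72 and -3.71 in F1 after E2, against -3.61, -3.49 and -3.56 with vehicle. In C3H it was -5.22, -5.18 and -5.34 after E2, against -4.01, -4.19 and -3.95 with vehicle. The change was -0.16 log2 in F1, which did not pass (adjusted p = 0.141), and -1.20 log2 in C3H, so the difference was 1.04 log2 (SE 0.13, adjusted p = 0.000297). F1 vehicle uterus was already higher than C3H vehicle uterus by 0.49 log2. In normexp background correction, an alternative to the scanner's own, 50 intensity units were also added to each corrected signal. The Wdr76 difference was then 0.48.

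A second pattern was a gap between the vehicle groups, which shared no slide, that was smaller after E2. Syn2, a synapsin of synaptic vesicles, was -0.63, -0.27 and -0.09 in F1 after E2, against -3.05, -3.02 and -3.20 with vehicle. The C3H arrays were at -0.45, -0.52 and -0.43 after E2, against -0.52, -0.50 and -0.56 with vehicle. Syn2 rose 6.78-fold in F1, while the C3H change was 0.06 log2 (adjusted p = 0.824), and the difference was 2.70 log2 (SE 0.32, adjusted p = 0.000153). The E2 arrays of the strains overlapped, and F1 vehicle uterus was lower than C3H vehicle uterus by 2.56 log2 (log2 difference -2.56). The other 2 Syn2 probes gave differences of 2.23 and 3.49 log2. B6 uterus rose by 3.21 log2.

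H2ap, an X-linked histone gene of the H2A family, was -3.30, -3.20 and -3.45 in F1 after E2, against -3.66, -3.79 and -3.58 with vehicle. The C3H levels were -3.62, -3.51 and -3.47 after E2, against -6.44, -6.39 and -6.45 with vehicle. The C3H vehicle arrays were low and the other 9 arrays close together, so E2 raised H2ap by 2.89 log2 in C3H and 0.36 log2 in F1 (difference -2.53, SE 0.21, adjusted p = 7.29e-07). Olfr339, an olfactory receptor gene, was -5.34, -5.53 and -5.37 in F1 after E2, against -2.36, -2.39 and -2.34 with vehicle. In C3H it was -5.73, -6.03 and -6.31 after E2, against -5.36, -5.71 and -5.54 with vehicle. Here the F1 vehicle arrays were the high ones, and the fall was 8.29-fold in F1 and 1.40-fold in C3H (difference -2.56, SE 0.24, adjusted p = 4.06e-06). After E2 the strains still did not overlap, and Olfr339 was 0.61 log2 higher in F1 (adjusted p = 0.0153). With normexp background the difference was -0.99 for H2ap and -1.605 for Olfr339, both still called.

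Of the 39 called genes with a symbol, 32 had a promoter in the RefSeq table (GRCm38.p6, the C57BL/6J reference, so C3H letters are not shown). The promoters below are those of the genes called in every alternative fit that have a single start in the table. Each runs from 250 bases before to 50 bases after the start, 5′ to 3′, and capitals mark GGTCA or its other strand TGACC, the half-site of the estrogen response element.
Wnt9a (chr11:59306680-59306979, plus strand): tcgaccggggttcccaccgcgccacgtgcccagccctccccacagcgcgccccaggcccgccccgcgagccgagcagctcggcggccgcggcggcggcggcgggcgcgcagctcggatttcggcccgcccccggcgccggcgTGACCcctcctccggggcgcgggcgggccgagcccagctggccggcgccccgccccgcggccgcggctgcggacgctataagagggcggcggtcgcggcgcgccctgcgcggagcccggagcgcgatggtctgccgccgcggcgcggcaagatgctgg
Prtg (chr9:72807024-72807323, plus strand): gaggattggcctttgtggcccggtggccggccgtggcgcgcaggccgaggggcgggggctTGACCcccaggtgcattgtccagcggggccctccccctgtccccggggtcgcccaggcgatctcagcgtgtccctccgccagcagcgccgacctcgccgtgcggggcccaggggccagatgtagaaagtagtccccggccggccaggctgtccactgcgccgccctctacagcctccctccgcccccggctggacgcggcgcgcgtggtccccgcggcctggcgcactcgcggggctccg
Pbp2 (chr6:135310335-135310634, minus strand): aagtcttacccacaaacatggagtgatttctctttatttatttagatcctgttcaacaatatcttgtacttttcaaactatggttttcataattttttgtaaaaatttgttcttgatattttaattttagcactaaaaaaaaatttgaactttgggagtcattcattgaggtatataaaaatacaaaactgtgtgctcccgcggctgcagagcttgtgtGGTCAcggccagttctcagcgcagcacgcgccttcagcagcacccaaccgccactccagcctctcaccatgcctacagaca
H2ap (chrX:9846697-9846996, plus strand): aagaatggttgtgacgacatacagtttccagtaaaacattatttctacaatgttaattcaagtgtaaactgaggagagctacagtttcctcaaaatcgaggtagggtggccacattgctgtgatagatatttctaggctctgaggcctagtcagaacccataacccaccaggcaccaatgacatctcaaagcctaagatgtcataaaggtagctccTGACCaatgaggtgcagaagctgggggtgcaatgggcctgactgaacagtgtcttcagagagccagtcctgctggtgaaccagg
Olfr339 (chr2:36421150-36421449, plus strand): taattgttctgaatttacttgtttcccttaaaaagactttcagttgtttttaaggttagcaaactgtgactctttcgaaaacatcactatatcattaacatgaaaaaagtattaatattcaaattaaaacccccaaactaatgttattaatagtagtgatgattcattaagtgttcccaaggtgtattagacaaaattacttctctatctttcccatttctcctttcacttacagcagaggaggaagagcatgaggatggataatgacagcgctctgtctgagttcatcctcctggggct

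Counted from the start of the gene, the half-site begins at -108 in Wnt9a, at -190 in Prtg, at -31 in Pbp2 and at -34 in H2ap, and the Olfr339 window has no match. It was found in 10 of the 32 called genes (31.2%), and in 40.5% of all 32851 promoter windows. The full estrogen response element, GGTCA, any 3 bases and TGACC, which contains the half-site on both strands, matched 0 of the 32 genes and 0.07% of all windows. The AP-1 site TGANTCA matched 2 genes (6.25%, against 7.81% of all windows). The GC box GGGCGG or its other strand CCGCCC matched 18 genes (56.2%, against 35.7%). Counted per start rather than per gene, the GC box was in 18 of 35 windows (51.4%).

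Among the other genes with a positive difference, several rose in both strains and more in F1. Pbp2, a phosphatidylethanolamine binding protein gene, was -4.56, -4.30 and -4.22 in F1 after E2, against -6.12, -6.12 and -6.27 with vehicle. For C3H the levels were -5.88, -5.70 and -5.83 after E2, against -6.47, -6.29 and -6.32 with vehicle. The rise was 1.81 log2 in F1 and 0.55 log2 in C3H (difference 1.26, SE 0.20, adjusted p = 0.00485). With normexp background the Pbp2 difference was 0.55. At 24 h the changes from vehicle were 2.31 and -0.10. Relt, a receptor of the tumour necrosis factor family, rose by 1.63 log2 in F1 and 0.47 in C3H (difference 1.16, SE 0.21). Phf21b, a PHD finger gene, rose by 3.28 and 2.02 log2 (difference 1.26, SE 0.26), and the call was lost in 14 of 23 alternative fits. Socs2, an inhibitor of cytokine and growth hormone signalling, rose by 2.23 and 1.56 log2 (difference 0.68, SE 0.14). The other Socs2 probe gave 0.01 (SE 0.17), and the call was lost in 15 of 23 alternative fits, the median over probes among them. The vehicle level was lower in F1 for Relt (-0.62), Phf21b (-0.85) and Socs2 (-0.70).

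Other positive differences were falls that went further in C3H. Ednra, the endothelin receptor type A of vascular and uterine smooth muscle, was 2.66, 2.31 and 2.63 in F1 after E2, against 3.36, 3.36 and 3.41 with vehicle. C3H arrays read 2.20, 2.02 and 1.92 after E2, against 3.78, 3.69 and 3.83 with vehicle. The fall was 1.80-fold in F1 and 3.30-fold in C3H (difference 0.88 log2, SE 0.13, adjusted p = 0.00313). The Ednra level in F1 relative to C3H was 0.48 log2 after E2 and -0.39 log2 with vehicle, both past the threshold. Another Ednra probe gave a difference of 0.84 log2, and the remaining probes 0.14 (SE 0.18) and -0.73 (SE 0.57), and the median over probes did not pass (0.49, adjusted p = 0.191). Smooth muscle markers were lower in F1 vehicle uterus for 5 of 10 (median -0.27 log2), against 9% of all genes tested. They had 0 of 10 called differences of response (median 0.09), against 0.224% of all genes. Their part in the Ednra result was not tested. Atoh8, a helix-loop-helix transcription factor gene, changed by -0.97 log2 in F1 and -1.63 in C3H (difference 0.66, SE 0.14), and the call was lost in 16 of 23 alternative fits. Pxdn, which encodes peroxidasin of the extracellular matrix, rose by 0.32 log2 in F1 and changed by -0.26 log2 in C3H (difference 0.58, SE 0.10, adjusted p = 0.00771).

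Genes with a negative difference included strong shared responders. Rasd1, a Ras-related gene induced by dexamethasone and a known early estrogen target in uterus, was 3.92, 4.18 and 4.13 in F1 after E2, against -0.13, 0.28 and 0.13 with vehicle. In C3H it was 4.37, 4.58 and 4.57 after E2, against -0.40, -0.33 and -0.49 with vehicle. It rose 15.8-fold in F1 and 30.1-fold in C3H (difference -0.93 log2, SE 0.14, adjusted p = 0.00313), and 3.52 log2 in B6. The C3H arrays were higher after E2 and lower with vehicle, with no overlap between strains in either condition. Rhd, a blood group gene related to ammonium transporters, was not well above background on any vehicle array of either strain. It rose at least 5.48-fold in F1 and at least 13.2-fold in C3H, and its fitted difference was -2.33 log2 (SE 0.42). Mast1, a kinase gene known from neurons, changed by -1.65 log2 in F1 and -0.77 in C3H (difference -0.87, SE 0.13, adjusted p = 0.00313).

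In other genes a rise passed in C3H alone. Add2, which encodes the membrane skeleton protein beta-adducin, changed by 0.36 log2 in F1 (adjusted p = 0.129) and rose by 1.84 in C3H (difference -1.48, SE 0.28). Its vehicle level was higher in F1 by 2.61 log2, 2 of its other 3 probes gave -1.60 and -1.56, and 1 gave 0.47 (SE 0.40). The Add2 call was lost in 11 of 23 alternative fits. Mt4, a metallothionein of squamous epithelium, changed by -0.21 log2 in F1 and rose by 0.83 in C3H (difference -1.04, SE 0.19), a call lost in 8 of 23 alternative fits. The squamous epithelium markers were called in 0 of 8 for the difference, against 0.224% of all genes tested. At so low a share, 0 of 8 does not set them apart from other genes. Their part in the Mt4 result was not tested. Olfr1339, an olfactory receptor gene, changed by -0.02 log2 in F1 and rose by 1.37 in C3H (difference -1.40, SE 0.29), and this call was lost on leaving out any single one of the 12 arrays. Olfactory receptor genes made 3 of the 49 called genes and 396 of the 21861 genes tested. Olfr339 kept its call in every alternative fit, while Olfr741 also lost its call on leaving out any single one of the 12 arrays.

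The strains moved in opposite directions in 8 genes, of which Wnt9a and Pxdn are described above. Duoxa2, a maturation factor of the dual oxidase that makes hydrogen peroxide at epithelial surfaces, was -5.04, -5.23 and -4.92 in F1 after E2, against -4.23, -4.50 and -4.55 with vehicle. The C3H levels were -4.71, -4.89 and -5.08 after E2, against -5.31, -5.23 and -5.31 with vehicle. The changes were -0.64 log2 and 0.39 log2 (difference -1.03, SE 0.18, adjusted p = 0.0174), and B6 uterus changed by -1.04 log2. Olfr741, an olfactory receptor gene, changed by -0.93 log2 in F1 and 1.07 in C3H (difference -2.01, SE 0.40), a call lost in 14 of 23 alternative fits. The other 4 had groups below background, so that their directions are those of fitted values. Prl, the gene of the hormone prolactin, had a fitted difference of 2.05 log2 (SE 0.34) and was not well above background on any F1 array. Khdc1a, a KH domain gene known from oocytes, had a fitted difference of 2.49 log2 (SE 0.49). It was not well above background on any C3H array, was at least 2.68-fold higher in F1 than in C3H after E2, and lost its call in 13 of 22 alternative fits. Inhbc, an inhibin beta subunit gene, and the unnamed probe NAP105665-1 complete the 8 and are named here after their values were seen. Inhbc was well above background on only 2 of the 12 arrays, both F1 vehicle.

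Further called genes had a group below background. Spata5l1, which encodes an AAA-type ATPase, was well above background on the 3 F1 E2 arrays and on none of the other 9. It rose at least 1.67-fold in F1 and was at least 2.16-fold higher in F1 than in C3H after E2 (fitted difference 1.40 log2, SE 0.20). The cDNAs A930024E05Rik and 4930483J18Rik were not well above background in F1 after E2. A930024E05Rik fell at least 4.70-fold in F1 (fitted difference -1.33 log2, SE 0.21), and 4930483J18Rik at least 1.14-fold (fitted difference -1.39 log2, SE 0.23). An unnamed cDNA, AK032625, singled out after its values were seen, had the second lowest p. It was -4.26, -4.30 and -4.29 in F1 after E2 and not well above background on the other 9 arrays, with a fitted difference of 3.29 log2 (SE 0.27).

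The normexp version, which also added 50 intensity units to every corrected signal, changed the size of several differences. Correction and addition were made together, so their parts cannot be told apart. With normexp background, the fitted difference was 0.31 log2 for Spata5l1, 0.32 for Prl and 0.41 for Khdc1a. It was -0.33 for A930024E05Rik and -0.22 for 4930483J18Rik, and these 5 were no longer called. Mast1 (-0.40), Duoxa2 (-0.47), Mt4 (-0.45), Add2 (-0.62) and Phf21b (0.65) also lost their calls. Rhd (-0.95), Olfr741 (-0.70) and Olfr1339 (-0.60) kept theirs with smaller differences. Wnt9a (3.22), Syn2 (2.30), Prtg (1.01), Rasd1 (-0.91) and Ednra (0.90) moved by less than 1.5 times.

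**Figure D3:**
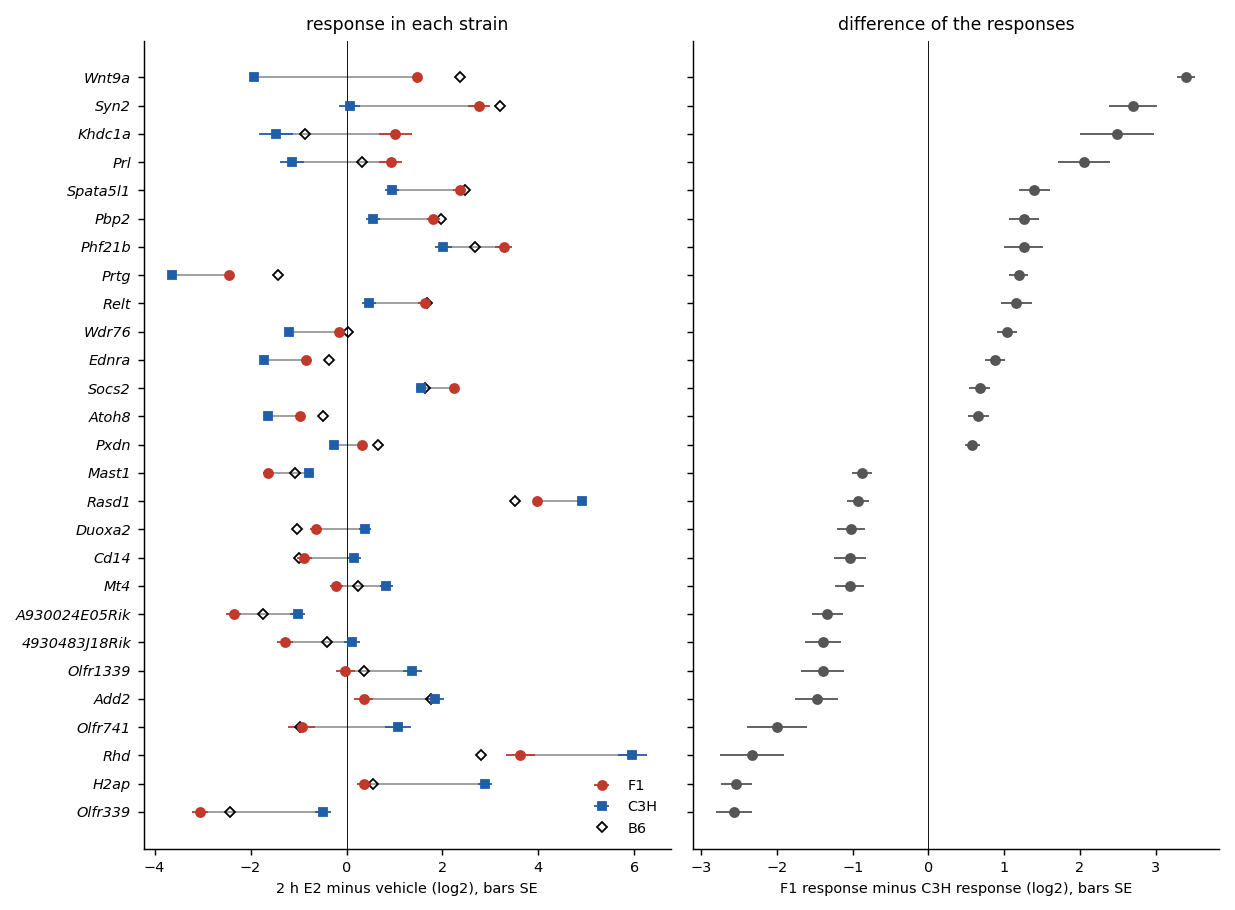
Left, the 2 h change from vehicle of the 27 called genes named here in F1 (circles), C3H (squares) and B6 (open diamonds), with standard errors for F1 and C3H; right, the F1 change minus the C3H change with its standard error, both in log2. In Wnt9a, Syn2, Olfr741 and Cd14 the B6 diamond lies on the F1 side, and in Add2 and Socs2 it lies near C3H.

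B6 arrays entered neither side of the difference, and E2 changed 56.8% of all genes tested in B6. The B6 response was nearer to that of F1 than to that of C3H in 42 of the 49 called genes (85.7%), 17 of 20 with a positive and 25 of 29 with a negative difference. Over all genes tested it was nearer to F1 in 54.4%, and among the 618 genes (2.83%) that differed by at least 1 log2 in 72.7%. In Prtg, Ednra and Wnt9a the B6 response lay beyond that of F1, so that the order was B6, F1, C3H. Add2 and Khdc1a were among the 7 genes nearer to C3H, with B6 changes of 1.75 and -0.86 log2.

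The called genes lay on 18 chromosomes by the mm7 probe positions of the files, and 9 of 49 had another called gene within 2 Mb. No such share was worked out for other genes tested, so 9 of 49 cannot be read as clustering. A group of 3, chosen after its values were seen, was Wdr76 at 121285585, Duoxa2 at 122043229 and Spata5l1 at 122374117 on chromosome 2. This stretch of 1.09 Mb held 17 genes tested, and the differences of the 14 genes not called there ran from -0.49 to 0.50 log2. Wdr76 and Spata5l1 had positive differences and Duoxa2 a negative one. Mertk, a receptor kinase gene of phagocytes (difference -0.69, probe start 128542984), and the unnamed cDNA AK085674 (-0.99, probe start 128508015) lay closer together on chromosome 2, with the same sign. On chromosome 11, Wnt9a (difference 3.40) and Rasd1 (-0.93), whose probe starts at 60045278, also lay within 2 Mb with opposite signs.

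Classical early estrogen responses were seen in both strains. Of 25 immediate early transcription factor genes measured, 24 rose in F1 and 24 in C3H, with median changes of 2.48 and 2.49 log2. Of these 25, 0 had a called difference and 3 an unadjusted p under 0.05, against 0.224% and 9.21% of all genes tested. Fos, the AP-1 subunit, rose by 5.16 log2 in F1 and 5.59 in C3H, and Egr1, a zinc finger factor, by 2.65 and 2.92. Fosl1, a further AP-1 subunit, was nearest to a call, with 5.27 and 4.15 log2 (difference 1.12, SE 0.25, adjusted p = 0.0707, 0.0318 without F1 E2 2 h replicate 1, and a difference of 0.40 with normexp background). Of 29 known early estrogen targets, 19 rose and 7 fell in F1, 19 rose and 9 fell in C3H, and Rasd1 was the 1 called. The difference had an unadjusted p under 0.05 in 10 of these 29, against 9.21% of all genes tested. Greb1, an estrogen receptor cofactor, rose by 3.63 and 3.66 log2, Vegfa, the vascular growth factor, by 2.93 and 3.03, and Nrip1, a receptor corepressor, by 2.37 and 2.34. Pgr, the progesterone receptor, rose by 1.97 and 1.64 log2 (difference 0.33, SE 0.12, adjusted p = 0.334). Esr1, the gene of estrogen receptor alpha, changed by -0.41 and -0.62 log2, a difference of 0.21.

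**Figure D4:**
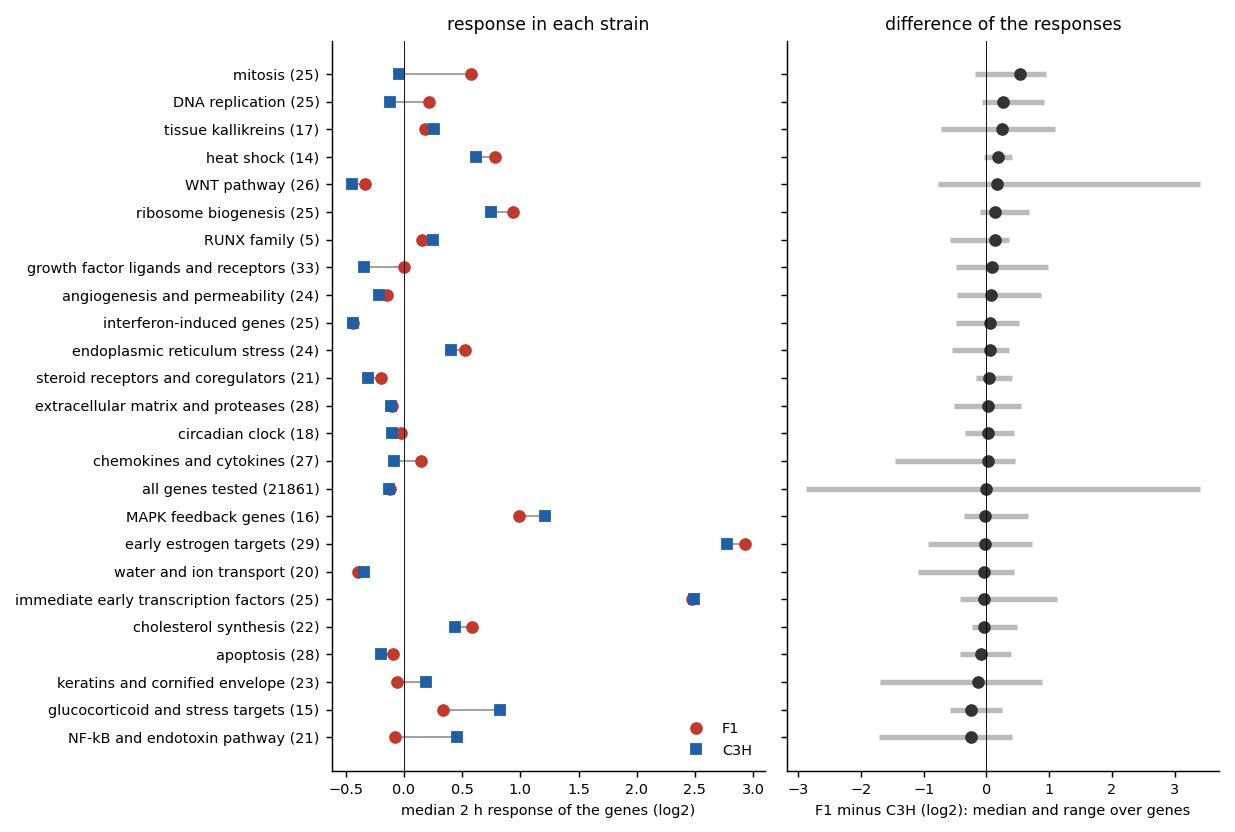
Left, the median 2 h change over the measured genes of each list in F1 and in C3H (log2; number of genes in brackets); right, the F1 minus C3H difference as the median (point) and the range over genes (bar). Mitosis had the highest median difference, 0.54, and the NF-kB and endotoxin list the lowest, -0.25, beside -0.01 over all genes.

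The WNT list held the gene with the largest called difference, Wnt9a. Of 26 WNT genes, 7 rose and 13 fell in F1, 5 rose and 13 fell in C3H, and the median difference was 0.16 log2 (0.25 without C3H E2 2 h replicate 1). Wnt4, a ligand induced by estrogen and needed for uterine differentiation, rose by 3.17 log2 in F1 and 2.78 in C3H. Wnt5a, a stromal ligand, changed by -0.57 and -0.96 log2, and Wnt7a, an epithelial ligand, by -1.25 and -1.64. The receptor gene Fzd1 changed by -3.12 and -3.25 log2. Wnt11, a ligand of the non-canonical branch, lay at the other end of the list, with -0.37 and 0.40 log2 (difference -0.77, not called). Wnt9a apart, all differences in the list lay between -0.77 and 0.62 log2.

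Cell cycle genes leaned one way without any single call. Of 25 mitosis genes, 14 rose and 0 fell in F1, against 2 and 0 in C3H, with median changes of 0.58 and -0.04 log2. Over all genes tested, 22.9% rose and 36.9% fell in F1, and 23.9% rose and 37.3% fell in C3H. The difference was above 0 in 24 of 25, against 10495 of all 21861 genes tested. Its median was 0.54 log2 beside -0.01 over all genes and -0.04 over the 4622 responders. None was called (0 by limma, 7 at an unadjusted p under 0.05), against 0.224% and 9.21% of all genes tested. Top2a, the topoisomerase of condensing chromosomes, was -2.33, -2.21 and -2.34 in F1 after E2, against -3.43, -3.24 and -3.64 with vehicle. C3H uterus had levels of -2.64, -2.10 and -2.63 after E2, against -2.70, -2.39 and -2.86 with vehicle. Its rise was 1.14 log2 in F1 and 0.19 in C3H (difference 0.95, SE 0.24, adjusted p = 0.138). The F1 vehicle arrays were the low ones, and they shared no slide with the C3H vehicle arrays. With vehicle, 17 of 25 mitosis genes were lower in F1 than in C3H (median -0.71 log2), against 9% of all genes tested. After E2 0 were lower and 1 was higher (median -0.13), against 12.4% and 6.23% of all genes tested.

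The 25 DNA replication genes had a median difference of 0.27 log2, above 0 in 24 (10495 of 21861 over all genes tested). Of the 25, 0 were called and 13 had an unadjusted p under 0.05, against 0.224% and 9.21% of all genes tested. In F1, 12 rose and 4 fell, and in C3H 3 rose and 8 fell. Uhrf1, which maintains DNA methylation at replication, was -1.20, -0.76 and -0.99 in F1 after E2, against -1.36, -1.34 and -1.63 with vehicle. In C3H it was -1.04, -0.57 and -1.35 after E2, against -0.52, -0.51 and -0.54 with vehicle. It rose by 0.46 log2 in F1 and fell by 0.46 in C3H (log2 change -0.46), and the difference of 0.92 (SE 0.26) had an adjusted p of 0.197. Mcm10, a replication initiation factor, changed by 0.54 and -0.22 log2. With vehicle, 11 of the 25 were lower in F1 and 0 higher, against 9% and 5.33% of all genes tested. At 24 h Uhrf1 was 3.80 log2 above vehicle in F1 and 2.19 in C3H, measured from the same vehicle arrays.

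**Figure D5:**
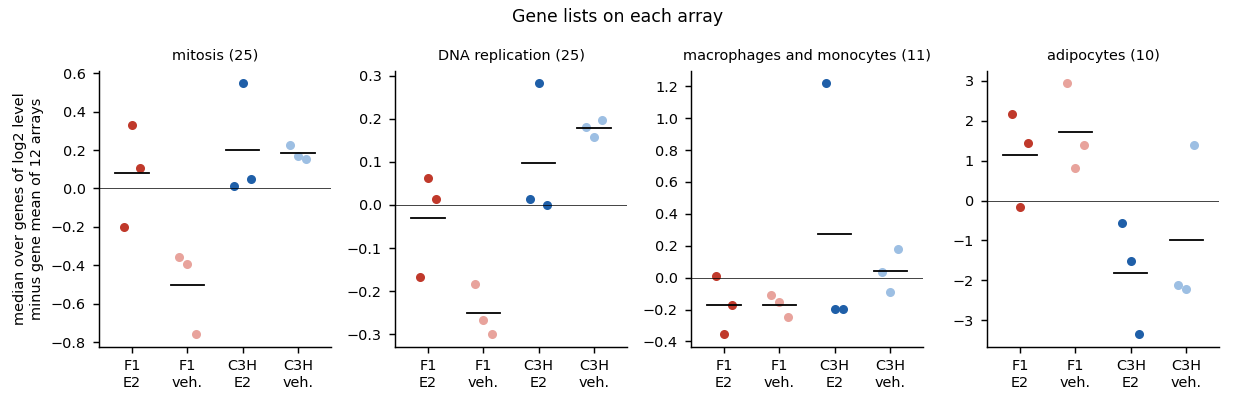
Each point is an array, placed by the median over a list's genes of the log2 level minus the gene's mean over the 12 arrays; lines are means of 3 arrays. F1 vehicle arrays were low for mitosis and DNA replication genes, C3H E2 2 h replicate 1 was high for macrophage markers, and adipocyte markers were uneven between strains and arrays.

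Cd14, the endotoxin co-receptor of macrophages and epithelium, was 0.99, 1.15 and 0.96 in F1 after E2, against 1.94, 2.07 and 1.72 with vehicle. C3H arrays read 2.38, 1.59 and 1.69 after E2, against 1.77, 1.72 and 1.70 with vehicle. It fell by 1.84-fold in F1, while the C3H change of 0.16 log2 did not pass (adjusted p = 0.389), and the difference was -1.04 log2 (SE 0.22, adjusted p = 0.0497). The high C3H E2 value is that of replicate 1. Without that array the difference was -0.79 (adjusted p = 0.0552), and the call was lost in 15 of 23 alternative fits (adjusted p = 0.0247 to 0.372 over all 23). Macrophage markers were high on the same array: Adgre1, the F4/80 antigen, was 5.35 there and between 0.96 and 1.63 on the other 11. The median over 11 macrophage markers was 1.22 there and between -0.35 and 0.18 elsewhere. A called difference was found in 0 of the 11, against 0.224% of all genes tested, which does not set them apart. On the F1 arrays the macrophage median was between -0.35 and 0.01 after E2, against -0.25 and -0.11 with vehicle. The part of macrophages in the Cd14 result was not tested. In B6, Cd14 changed by -0.99 log2.

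Cd14 was the 1 called gene of 21 in the NF-kB and endotoxin list, whose median difference was -0.25 log2 (-0.21 without C3H E2 2 h replicate 1). Tlr4, the endotoxin receptor whose C3H/HeJ allele is known to be poorly responsive, changed by -1.44 log2 in F1 and -1.42 in C3H. Irak3, an inhibitor of that pathway, rose by 3.34 and 3.69 log2, and Nfkbia, the NF-kB inhibitor, by 0.72 and 0.68. Glucocorticoid and stress targets also had a median of -0.24 log2, with 0 of 15 called, against 0.224% of all genes tested. Sgk1, a kinase, rose by 2.34 and 2.53 log2. Interferon-induced genes (25 measured, median difference 0.06), chemokines and cytokines (27, 0.02), steroid receptors and coregulators (21, 0.05) and clock genes (18, 0.02) had 0 called differences. Without C3H E2 2 h replicate 1 these medians were 0.22, -0.03, 0.01 and 0.01.

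Other lists had medians between -0.13 and 0.25 log2. Ribosome biogenesis genes rose in 20 of 25 in F1 and 18 of 25 in C3H, with median changes of 0.94 and 0.75 log2. Heat shock genes rose in 12 of 14 in both, with 0.79 and 0.62 log2, and endoplasmic reticulum stress genes in 17 and 16 of 24. Ednra was the 1 called of 24 angiogenesis and permeability genes. Scnn1a, the epithelial sodium channel subunit among 20 water and ion transport genes, rose by 1.76 log2 in F1 and 2.54 in C3H (difference -0.77, SE 0.17, adjusted p = 0.0545). Fgf2, a growth factor among 33 ligands and receptors, changed by -0.04 and -1.01 log2 (difference 0.98, SE 0.23, adjusted p = 0.0821, or 0.24 with normexp background). Krt87, a hair keratin, rose by 7.51 and 6.63 log2 with a difference of 0.88 (SE 0.29, adjusted p = 0.284). In all, 4 of 512 genes of the process lists (Wnt9a, Rasd1, Ednra and Cd14) were called for the difference, and 0 of 167 cell type and tissue markers. Over all genes tested it was 49 of 21861 (0.224%). At so low a share, 0 of 167 does not set the markers apart from other genes.

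Adipocyte markers were higher in F1 than in C3H for 6 of 10 with vehicle and 6 of 10 after E2, with medians of 2.75 and 2.96 log2. Over all genes tested, 5.33% and 6.23% were higher in F1. They varied within groups, from 0.81 to 2.94 on F1 vehicle arrays and from -2.21 to 1.38 on C3H vehicle arrays (list medians relative to the gene means). The median difference of their response was 0.24 log2, between -0.87 and 0.95 in the alternative fits and 0.83 without C3H E2 2 h replicate 1. The part of fat or of other cells in the 49 calls was not tested.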

How the data were processed

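Uterine RNA (500 ng) was amplified and labelled, and 1.65 µg of cRNA was hybridised for 17 h to 1-colour Agilent mouse arrays, per the labels. The authors deposited scanner output with processed signal intensities from Agilent Feature Extraction 9.5.3.1, per the file headers. The base-2 logarithm of that signal was taken and the array's 75th percentile over non-control spots subtracted. Control spots and outlier flags were left out and spots of a probe averaged. A probe was kept where every array of some group showed it well above background, and the brightest kept probe stood for its gene (21861 genes, 32901 probes). Probe positions are those of the files, on mm7. Names came from RefSeq by accession for 23082 of 41174 probes, by symbol for 6582 and by synonym for 3073, and 8437 kept the file's name.

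One limma 3.58.1 model (R 4.3.3, lmFit and eBayes) covered the 9 groups of 27 arrays without covariates, so that all groups share the estimate of spread. Calls are at 0.05 after Benjamini-Hochberg adjustment across the genes tested. For an "at least" fold, each array of the dim group was set to the faintest signal that still counted as well above background there, or to the probe's own signal if larger, and the mean was compared with that of the bright group. Named genes have a symbol and are the 10 largest called differences of each sign among genes well above background on 12 arrays, up to 3 of each sign among genes with a dim group, up to 6 with opposite called responses, and in each process list up to 3 called members or else the one with the lowest p. The members and lists were chosen with earlier results of these data known. Alternatives changed background correction, scaling, filter, probe choice, slide and the arrays left out. The code was tested on simulated data. The number of arrays limits the precision.

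Replicate numbers did not pair the 4 groups: the deviations of same-numbered arrays correlated at -0.125 to 0.200, over 0.1 in 6 of 18 pairs. Between F1 E2 and C3H E2 all 3 same-number pairs were over 0.1 (0.111 to 0.200, other numbers -0.187 to 0.052), so the numbers may pair there. This is not established, as differently numbered arrays reached 0.282 over the 4 groups.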

Additional observations from a re-analysis of the deposited data

Results flagged for a closer look

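The 2 h response differed between F1 and C3H for 49 genes by the interaction term of the fit, and each gene below stands out for that tested difference alone. Positive differences (F1 minus C3H, log2) were 3.402 for Wnt9a, 2.698 for Syn2, 2.488 for Khdc1a, 2.053 for Prl, 1.4 for Spata5l1, 1.257 for Pbp2, 1.256 for Phf21b, 1.192 for Prtg and 1.161 for Relt. They were 1.04 for Wdr76, 0.8752 for Ednra, 0.6754 for Socs2, 0.6596 for Atoh8 and 0.5797 for Pxdn. Negative differences were -2.563 for Olfr339, -2.535 for H2ap, -2.334 for Rhd, -2.005 for Olfr741, -1.477 for Add2, -1.396 for Olfr1339, -1.393 for 4930483J18Rik and -1.333 for A930024E05Rik. For Khdc1a, Prl, Spata5l1, Rhd and both cDNAs, which had groups not well above background, these are fitted values and no measure of size. The differences were -1.039 for Mt4, -1.035 for Cd14, -1.027 for Duoxa2, -0.9307 for Rasd1 and -0.8737 for Mast1.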

How the results depend on the processing

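Of the 27 named called genes, 7 (Wnt9a, H2ap, Olfr339, Prtg, Syn2, Wdr76 and Pbp2) stayed past the threshold in every alternative that gave a value, and none of the 27 changed direction in any. Sizes held less well: with normexp background and its added 50 intensity units H2ap moved to -0.99, Olfr339 to -1.605, Wdr76 to 0.48 and Pbp2 to 0.55. The count of 49 became 147 (28 positive and 119 negative) with the 12 arrays alone, 84 (31 and 53) with quantile normalization and 20 (14 and 6) without scaling, and 28 to 59 when single arrays were left out. The cause was not tested. With the replicate block it was 54, of which 43 were among the 49, and Phf21b and Atoh8 lost their calls. For the E2 level, where the numbers may pair, the block gave 4196 genes in place of 4073. Normexp background, chosen after seeing the data without the lowest spots because the planned version failed on 7 arrays, gave 65 (32 among the 49). The planned version was not run, and slide as a fixed term could not be fitted for the difference. With that term the E2 level differed for 213 genes (184 higher and 29 lower in F1) in place of 4073. Against the F1 vehicle array of the E2 slide alone the vehicle level differed for 1066 (561 and 505) in place of 3132. Leaving out single arrays gave 2513 to 3595 genes for the E2 level.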
